A study of Mus musculus with 24 samples.

Results

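The tumour suppressor p53, encoded by Trp53 in the mouse, is a transcription factor whose targets stop the cell cycle, start cell death, repair DNA and adjust metabolism. The 34 genes described here are Trp53 and 33 genes of its pathway, chosen by name, and all 34 are among the 34113 genes of the deposited table. They were measured in splenic T lymphocytes of C57BL/6N mice that lacked Atm (Atm-/-, KO) or carried both wild-type copies (Atmwt/wt, WT). Mice of each genotype had received a transplant of B-cell lymphoma (lymphoma) or none (control). CD8 and CD4 libraries came from the same 12 pools of mice, 22 mice in all, which gave 24 libraries in 8 groups of 3. A single mouse gave each WT lymphoma library, and 2 or 3 mice were pooled for the rest. The origin of the lymphoma, the Atm allele and the age of the mice are not given in the sources used here.

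Atm is a kinase that is activated at DNA double-strand breaks. It phosphorylates p53 and, directly and through the checkpoint kinase Chek2, frees it from its inhibitor Mdm2, so that p53 accumulates and binds its target genes. In lymphocytes this route is best known from thymocytes, where irradiation induces Cdkn1a, Bbc3 and other targets and leads to cell death. Several of the targets are also switched on or off by other transcription factors, so a change in 1 of them is not a measure of p53 itself.

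The binding element of p53 consists of paired half-sites, each centred on the letters CNNG. To show which members hold such an element next to a start site, promoters were read from 250 bases before to 50 bases after each start (RefSeq, GRCm38.p6), which matched 27 of the 34 members in 40 windows. Every window was searched for the p53 consensus full site, 20 letters without a gap, with the C and G of both half-sites required and at most 3 mismatches. The consensus is its own reverse complement, so 1 search covers both strands. The elements found are printed from 5′ to 3′ on the gene's strand, with the 20 letters in capitals and 5 flanking bases on each side, and whole windows are given for Cdkn1a and Ccng1, which moved in opposite directions with lymphoma in CD8 cells.
Cdkn1a: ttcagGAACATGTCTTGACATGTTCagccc
Ccng1: aggccAGACCTGCCCGGGCAAGCCTtggca
Rps27l: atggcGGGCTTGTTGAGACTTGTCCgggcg
Trp53: cggaaGGACTTGCCCTTACTTGTTAtggcg
Bbc3: cccgaCTGCAAGCCCCGACTTGTCCccagc
Aen: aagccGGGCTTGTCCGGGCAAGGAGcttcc
Sesn1: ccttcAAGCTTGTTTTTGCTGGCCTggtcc
Cdkn1a, whole window: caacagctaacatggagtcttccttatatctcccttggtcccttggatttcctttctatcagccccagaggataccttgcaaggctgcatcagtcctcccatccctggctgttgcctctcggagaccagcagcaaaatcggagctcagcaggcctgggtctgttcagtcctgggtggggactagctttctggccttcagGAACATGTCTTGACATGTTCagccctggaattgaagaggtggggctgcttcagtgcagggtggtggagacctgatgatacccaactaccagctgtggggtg
Ccng1, whole window: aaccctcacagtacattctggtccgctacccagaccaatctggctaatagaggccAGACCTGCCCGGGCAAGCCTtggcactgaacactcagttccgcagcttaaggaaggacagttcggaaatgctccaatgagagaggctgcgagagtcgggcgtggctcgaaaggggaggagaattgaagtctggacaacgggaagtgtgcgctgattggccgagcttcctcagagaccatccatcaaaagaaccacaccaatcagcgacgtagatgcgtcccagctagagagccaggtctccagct

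The elements of Cdkn1a, Ccng1 and Rps27l differed from the consensus in 1 letter, and those of Trp53, Bbc3, Aen and Sesn1 in 3. The Cdkn1a element lies at chr17:29090928-29090947 (GRCm38.p6, plus strand), and its first base is at position -51 from 1 of 2 annotated starts. The Ccng1 element lies at chr11:40755462-40755481 on the minus strand, at -195 from the start. In Rps27l the position was -117 from the second of 2 starts, which is downstream of the first. It was -97 from the first of 3 starts in Bbc3 and -75 in Trp53. In Sesn1 it was -173 from the second of 2 starts, and in Aen it was 11 and -121 from its 2 starts. In all, 7 of the 27 members (25.9%) held an element, against 441 of 27025 genes (1.63%) and 453 of 32851 windows of the same length (1.38%), and 22 windows (0.067%) had at most 1 mismatch. The windows of Fas, Mdm2, Ercc5, Gdf15, Ddit4, Dram1 and Abhd4 held no match. The members were listed as genes of the p53 pathway, so their larger share of elements is no independent result. The search rule was chosen with the expression results known. A match is a run of letters and no proof of binding, and no match says only that these letters are not in this window.

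Library totals ran from 6470482 to 10196062 counts, so that 1 count equalled 0.0981 to 0.155 CPM, which scales a count by the library total and is the unit of every level given here. Atm tags ran from 26.9 to 107 CPM in KO and from 117 to 210.4 CPM in WT libraries, and the difference passed the test in CD8 (log2 fold change -1.09 ± 0.17, adjusted p = 0.00697) and in CD4 libraries (-1.14 ± 0.27, adjusted p = 0.032). Cd4 and Zbtb7b, summed, reached at most 30.8 CPM in CD8 libraries and at least 131.9 CPM in CD4 libraries, and Cd8a and Cd8b1 ran at 316.8 CPM or more in CD8 and at 62.3 CPM or less in CD4 libraries. Markers of other cells were present in every group. The sum of 12 macrophage and monocyte genes ran from 260.5 to 3209 CPM and that of 8 pan-T genes from 811.4 to 2268 CPM. No gene of the 11 marker lists was at 0 in all libraries of a group. Y-linked RNA was at 54.7 to 188.8 CPM in WT controls, 1.41 to 161 CPM in WT lymphoma and 0.986 to 66.5 CPM in KO libraries. Its group median was 118.1 CPM in CD8 and 125 CPM in CD4 WT controls, and 2.69 to 4.80 CPM in every other group. Male mice were thus unevenly spread over the groups, with the most Y-linked RNA in WT controls. Fits with the Y-linked score as a covariate are given below. CD8 KO lymphoma 1 stood apart with 30580 CPM of 7 erythroid genes, where the other CD8 libraries had 3910 CPM or less. It also had the highest neutrophil sum (3432 CPM) and B cell sum (617.3 CPM) and the lowest T cell sum (811.4 CPM) of the 24 libraries.

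A fold change is a log2 value from the edgeR quasi-likelihood fit across all genes, with its standard error after ±. Rose and fell are used only where the p adjusted over all genes tested (Benjamini-Hochberg) was under 0.05. With 3 libraries per group, each of 1 pool or 1 mouse, a difference was set against the spread between libraries, estimated over all groups of a fit. The main fit of CD8 against CD4 did not use the pairing of libraries from the same mice. Eda2r, Perp and Ak1 had too few counts for the test, with 11, 130 and 13 counts over the 24 libraries and no more than 0.631, 2.59 and 0.284 CPM in any library, and the other 31 members were tested. Eda2r encodes a receptor of the tumour necrosis factor family, Perp a membrane protein of cell death and adhesion, and Ak1 an adenylate kinase.

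Few members passed between KO and WT libraries, in numbers close to the share of all genes called, which is given below. Over both conditions, Sesn1, Fas and Ercc5 fell in CD8 KO libraries, and Sesn1 fell in CD4 KO libraries as well. The Ercc5 call and the CD4 call of Sesn1 ended in most fits that left out 1 library. Cdkn1a, the best known p53 target, went the other way and rose in CD4 KO libraries. Trp53 itself, Mdm2 and Ccng1 did not pass in either cell type. In bulk libraries, fewer cells of a type and less RNA per cell cannot be told apart.

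In numbers, the comparison of KO with WT over both conditions called 3 of 31 members in CD8 libraries, 0 higher and 3 lower, where 6.45% of the 12650 genes tested were called (2.85% higher and 3.6% lower). In CD4 libraries it called 2 members, 1 higher and 1 lower, where 6.31% of 12808 genes were called (5.29% higher and 1.01% lower). Within controls 0 members passed in CD8 (background 0.522%) and Cdkn1a passed in CD4 libraries (background 2.01%). Within lymphoma mice Fas passed in CD8 (background 0.245%) and 0 members passed in CD4 libraries, where 0% of genes did. Where no member passed by edgeR, unadjusted p-values under 0.05 were counted. They were found for 6 members higher and 2 lower in CD8 controls, beside 1137 higher and 724 lower of all 12650 genes tested. In CD4 lymphoma libraries they were found for 3 members higher and 4 lower, beside 754 higher and 636 lower of all 12808 genes. DESeq2 called 1 member in the CD8 controls, Bbc3, and 0 members in the CD4 lymphoma libraries. Over both conditions, the counts of 3 and 2 became 6 in CD8 and 6 in CD4 libraries without KO lymphoma 2. They became 2 and 1 without KO lymphoma 3, and 2 and 2 without KO lymphoma 1. The backgrounds above belong to the fits with no library left out, so these changed counts cannot be set against them. The median fold change of the 31 members over both conditions was 0.14 in CD8 and 0.16 in CD4 libraries, against 0.04 and -0.01 for all genes tested.

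**Figure D1:**
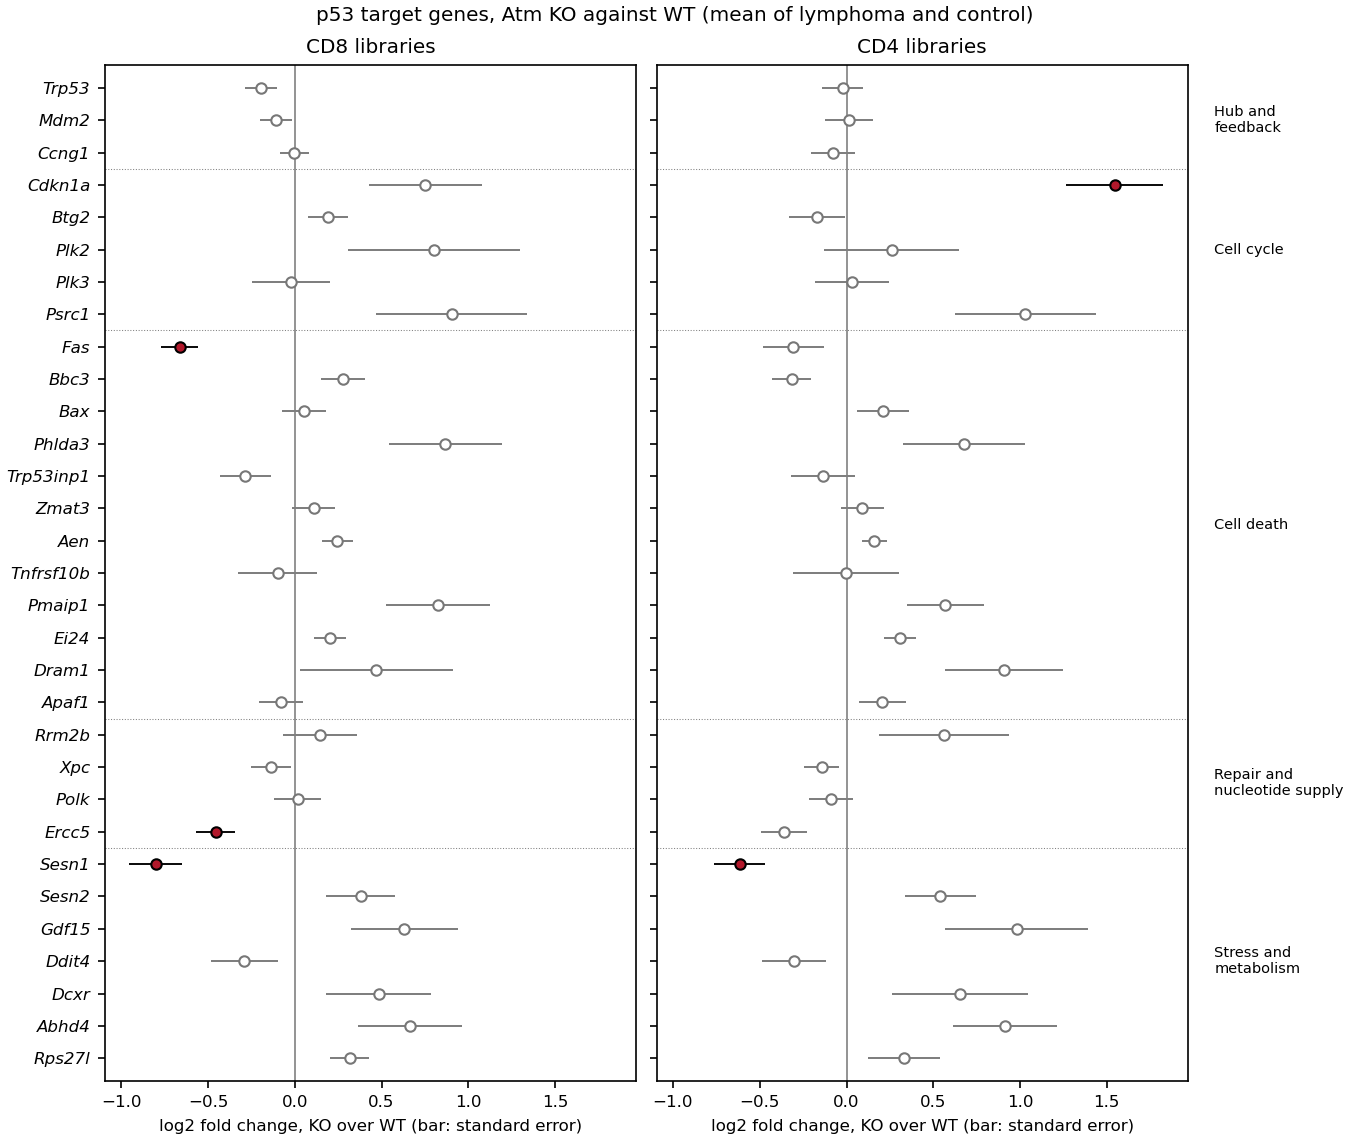
Log2 fold change of KO over WT (mean of lymphoma and control) for the 31 members tested, CD8 libraries on the left and CD4 on the right, with bars of 1 standard error, ordered by role. Filled points passed the adjusted threshold: Fas, Ercc5 and Sesn1 at -0.66, -0.46 and -0.80 in CD8, and Cdkn1a and Sesn1 at 1.54 and -0.62 in CD4 libraries.

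With lymphoma, members were called in both directions in CD8 libraries. Over both genotypes 6 members rose in CD8 lymphoma libraries, Gdf15, Cdkn1a, Dram1, Abhd4, Rrm2b and Rps27l, and 4 fell, Ccng1, Bbc3, Trp53inp1 and Zmat3. In CD4 libraries Cdkn1a and Dram1 rose and Sesn1 fell. Whether the numbers differ between CD8 and CD4 cells was not tested.

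The CD8 count of 10 of 31 stood beside a background of 17.7% of genes (11.6% higher and 6.12% lower), and the CD4 count of 3 beside 7.18% (5.72% higher and 1.46% lower). Within WT mice 3 members passed in CD8 (background 1.42%) and 1 in CD4 libraries (background 1.69%). Within KO mice Bbc3 passed in CD8 libraries (background 2.18%), and 0 members passed in CD4 libraries, where 0% of genes did. There, 4 members were higher and 4 lower at an unadjusted p under 0.05, beside 1179 higher and 774 lower of all 12808 genes tested. In the same CD4 KO comparison DESeq2 called Cdkn1a, Aen and Sesn1. Without KO lymphoma 2 the counts over both genotypes were 11 in CD8 and 8 in CD4 libraries, without KO lymphoma 1 they were 8 and 2, without KO lymphoma 3 they were 12 and 3, and without WT lymphoma 3 they were 4 and 1. Within CD8 KO mice 9 members passed without KO lymphoma 2. The backgrounds in this paragraph are those of fits with no library left out and do not apply to the changed counts. The median over members was 0.00 in CD8 and 0.11 in CD4 libraries over both genotypes, against -0.03 and -0.02 for all genes tested. Comparisons within a cell type share libraries, so their results are not independent of each other.

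**Figure D2:**
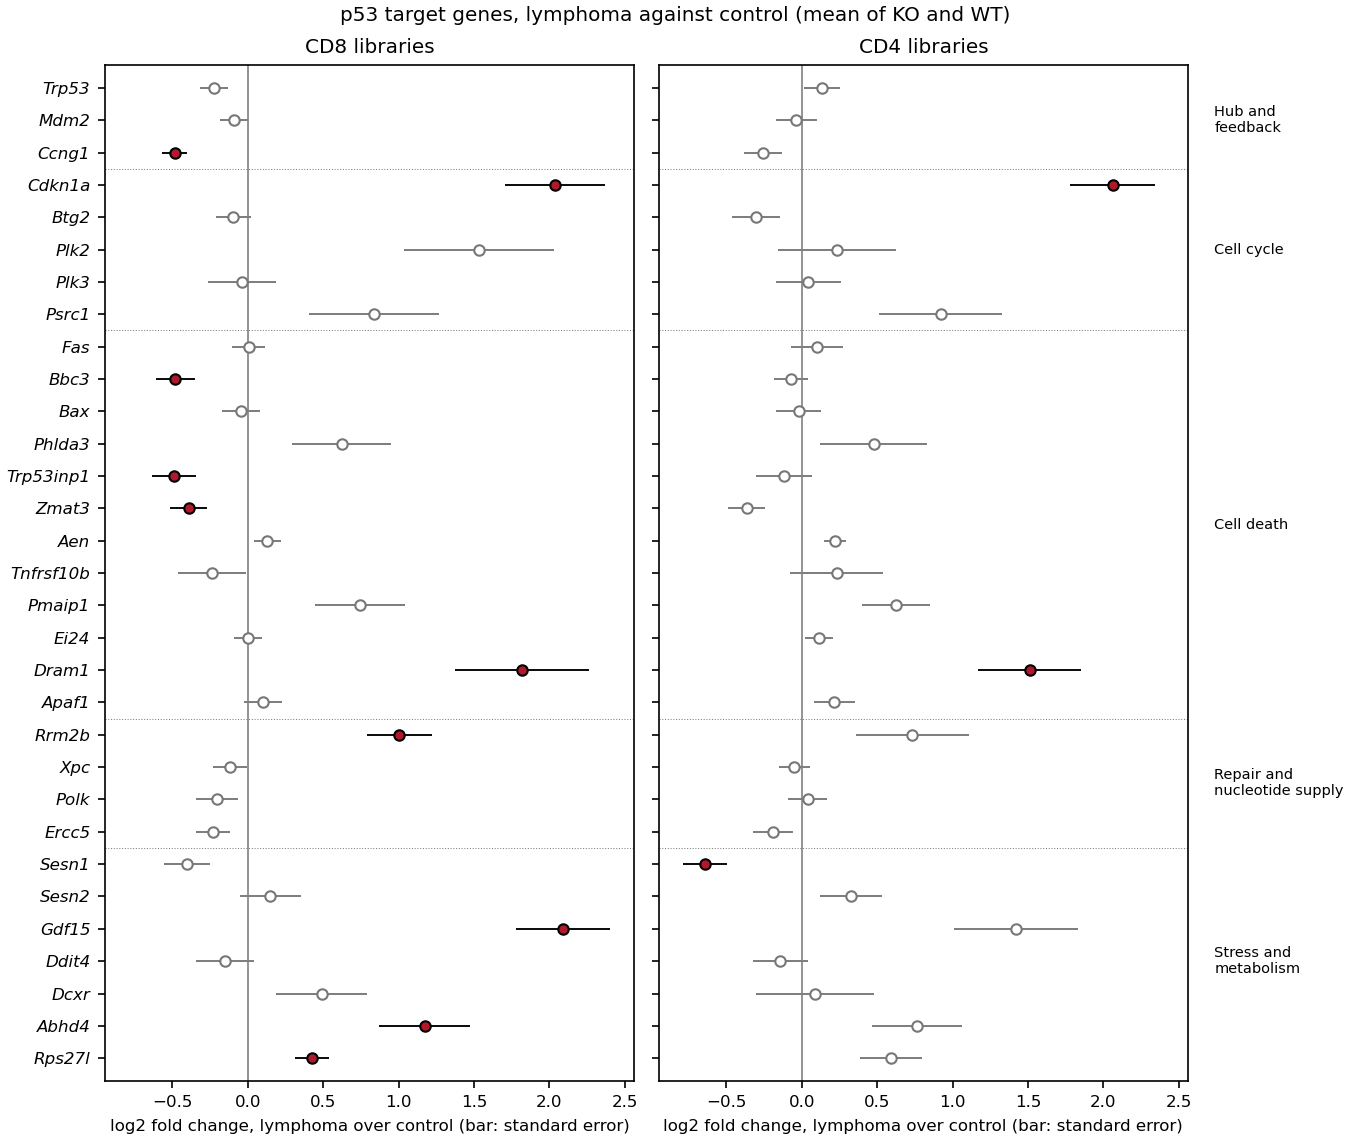
Log2 fold change of lymphoma over control (mean of KO and WT) for the 31 members tested, CD8 libraries on the left and CD4 on the right, with bars of 1 standard error, ordered by role. Of the filled points, which passed the adjusted threshold, 6 lie right and 4 left of 0 in CD8 libraries, and Gdf15 and Cdkn1a reach 2.09 and 2.04.

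Trp53 RNA changed in no comparison that passed the test. Trp53 in CD8 libraries stood at 21.3, 20.8 and 17.6 CPM in KO lymphoma and 23.2, 24.96 and 28.2 CPM in KO control libraries, and 25.02, 24.4 and 26.7 CPM in WT lymphoma and 27.6, 24.0 and 30.1 CPM in WT control libraries. Trp53 in CD4 libraries stood at 25.3, 23.3 and 35.0 CPM in KO lymphoma and 29.1, 25.3 and 25.5 CPM in KO control libraries, and 28.1, 33.1 and 27.2 CPM in WT lymphoma and 27.9, 18.3 and 26.3 CPM in WT control libraries. The 24 values span 17.6 to 35.0 CPM, and the CD8 KO lymphoma libraries were all below every CD8 WT lymphoma library. That difference was -0.33 ± 0.13, adjusted p = 0.213, and Trp53 passed in none of the 15 comparisons. Mdm2, which encodes the ubiquitin ligase that marks p53 for destruction and is itself a target, passed in none either. Mdm2 in CD8 libraries stood at 109, 133 and 107 CPM in KO lymphoma and 159.6, 125 and 115 CPM in KO control libraries, and 129, 135 and 146 CPM in WT lymphoma and 148, 129.6 and 131 CPM in WT control libraries. Mdm2 in CD4 libraries stood at 160.2, 175 and 102 CPM in KO lymphoma and 135, 145 and 136 CPM in KO control libraries, and 140.0, 125 and 132 CPM in WT lymphoma and 139, 143 and 138 CPM in WT control libraries. The groups overlapped in all 8 comparisons of 2 groups, and the CD4 KO lymphoma group held both the lowest and the highest Mdm2 value of all libraries.

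Ccng1 encodes cyclin G1, which brings a phosphatase to Mdm2 and activates it. Ccng1 in CD8 libraries stood at 35.2, 44.9 and 37.8 CPM in KO lymphoma and 54.6, 54.3 and 49.2 CPM in KO control libraries, and 39.6, 38.9 and 35.8 CPM in WT lymphoma and 54.0, 57.6 and 57.4 CPM in WT control libraries. All 6 CD8 lymphoma libraries lay below all 6 CD8 controls, in KO and WT mice alike. Ccng1 averaged 38.7 ± 3.50 CPM in CD8 lymphoma and 54.5 ± 3.03 CPM in CD8 control libraries (SD, n = 6 each) and fell (-0.49 ± 0.08, adjusted p = 0.00511), also without any 1 library. In KO mice the difference was -0.43 ± 0.12, adjusted p = 0.0644, and in WT mice -0.55 ± 0.12, adjusted p = 0.0467, a call that ended without any 1 of the 6 libraries (adjusted p 0.0553 to 0.224) or with no filter on low counts (0.0606) or the Y-linked score as a covariate (0.0561). Ccng1 in CD4 libraries stood at 58.2, 59.9 and 49.9 CPM in KO lymphoma and 73.8, 54.8 and 64.1 CPM in KO control libraries, and 57.0, 65.1 and 46.7 CPM in WT lymphoma and 69.5, 72.7 and 56.1 CPM in WT control libraries. These groups overlapped, and the CD4 difference between lymphoma and control was -0.26 ± 0.13, adjusted p = 0.242. T cell marker genes fell in the same CD8 comparison, 7 of 8, and their part in the Ccng1 result was not tested. Between genotypes the fold change of Ccng1 was -0.06 ± 0.12 in CD8 controls and -0.12 ± 0.18 in CD4 controls.

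Among the cell cycle genes, Cdkn1a was the 1 member of 5 that passed. It encodes p21, an inhibitor of cyclin-dependent kinases (GRCm38, chromosome 17, 29090976 to 29100727), and its p53 element is the first of those printed above. Cdkn1a in CD8 libraries stood at 8.04, 5.88 and 6.40 CPM in KO lymphoma and 1.38, 2.55 and 2.21 CPM in KO control libraries, and 2.24, 4.88 and 8.35 CPM in WT lymphoma and 0.582, 1.35 and 0.966 CPM in WT control libraries. Cdkn1a in CD4 libraries stood at 10.5, 7.21 and 8.96 CPM in KO lymphoma and 4.48, 3.33 and 2.45 CPM in KO control libraries, and 2.53, 5.04 and 7.10 CPM in WT lymphoma and 0.659, 0.462 and 0.927 CPM in WT control libraries. WT controls were lowest in both cell types, at 0.462 to 1.35 CPM or 4 to 12 counts per library, and KO lymphoma libraries had the highest CD4 values. All 3 lymphoma libraries were above all 3 controls within each genotype and cell type, and all 3 KO above all 3 WT libraries in CD8 controls, CD4 controls and CD4 lymphoma mice. Between genotypes the margin was narrow in CD8 controls, 1.376 CPM (9 counts) against 1.352 CPM (12 counts). It was also narrow in CD4 lymphoma mice, 7.21 against 7.10 CPM.

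Cdkn1a rose with lymphoma by 2.04 ± 0.33, adjusted p = 0.00392 in CD8 and by 2.06 ± 0.28, adjusted p = 0.00209 in CD4 libraries over both genotypes, calls that held without any 1 library. The values within KO mice were 1.70 ± 0.45, adjusted p = 0.0577 in CD8 and 1.34 ± 0.36, adjusted p = 0.160 in CD4 libraries. Within WT mice Cdkn1a rose in both, by 2.37 ± 0.48, adjusted p = 0.0353 in CD8 and 2.78 ± 0.44, adjusted p = 0.00954 in CD4 libraries. The WT call ended in CD8 libraries without WT lymphoma 2 or 3 or WT control 1 or 3 (adjusted p up to 0.177) and in CD4 libraries without WT control 1 or 2 (up to 0.0662). For KO against WT, Cdkn1a rose in CD4 libraries over both conditions (1.54 ± 0.28, adjusted p = 0.0121, held without any 1 library). In CD4 controls it averaged 3.42 ± 1.01 CPM in KO and 0.683 ± 0.233 CPM in WT libraries (SD, n = 3 each) and rose (2.26 ± 0.44, adjusted p = 0.0312), a call that ended without any 1 library other than WT control 3 (adjusted p up to 0.191). In CD4 lymphoma libraries the difference was 0.83 ± 0.35, adjusted p = 0.434, and in CD8 libraries over both conditions 0.75 ± 0.33, adjusted p = 0.166.

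Macrophage and monocyte markers moved with Cdkn1a. Their sum was 1779 to 2369 CPM in CD4 KO controls and 694.7 to 1156 CPM in CD4 WT controls, where 9 of the 12 genes passed as higher in KO libraries, and over both conditions 11 of 12 did. With lymphoma it was 2459 to 3209 CPM in CD4 KO and 1377 to 1830 CPM in CD4 WT libraries. In CD8 libraries the sums were 2270 to 2951 CPM in KO lymphoma, 1467 to 1588 CPM in KO control, 1387 to 1995 CPM in WT lymphoma and 260.5 to 1315 CPM in WT control libraries. The 6 WT controls had the 6 lowest macrophage sums and the 6 lowest Cdkn1a levels of the 24 libraries. This was not particular to macrophage markers. Platelet sums were at most 90.7 CPM in WT controls and at least 120.3 CPM elsewhere. Blood progenitor sums were at most 21.3 against at least 28.4 CPM, and mitosis sums at most 147.5 against at least 149.7 CPM. None of the 12 macrophage markers was at 0 in a group, and the part of any of these cells in the Cdkn1a result was not tested.

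**Figure D3:**
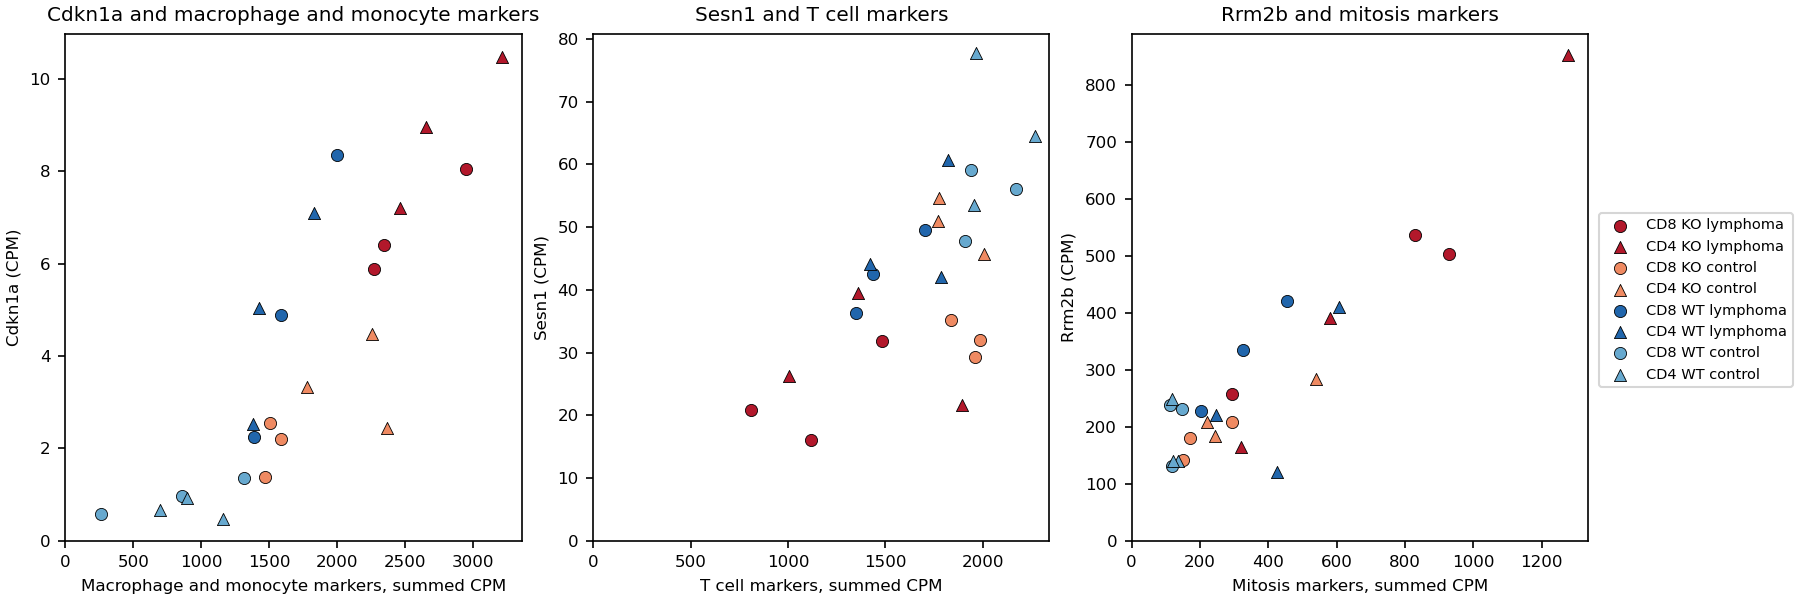
Levels of Cdkn1a, Sesn1 and Rrm2b (CPM, vertical) against summed CPM of macrophage, T cell and mitosis markers (horizontal) in the 24 libraries, circles for CD8 and triangles for CD4, coloured by genotype and condition. The 6 WT controls are lowest in both Cdkn1a and the macrophage sum. They are also lowest in the mitosis sum and in platelet and blood progenitor sums, which are not plotted. The CD8 KO controls lie at 29.4 to 35.2 CPM of Sesn1 and 1836 to 1987 CPM of T cell markers. For the CD8 WT controls these ranges are 47.8 to 59.2 and 1908 to 2171 CPM. This Sesn1 difference did not pass. CD4 KO lymphoma 3 has both the most Rrm2b (853 CPM) and the largest mitosis sum (1277 CPM).

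The other 4 cell cycle genes did not pass in any comparison. Btg2, an antiproliferative gene of resting lymphocytes, ran from 58.5 to 140.3 CPM, and in CD4 KO libraries its difference between lymphoma and control was -0.64 ± 0.23, adjusted p = 0.232. Plk2 and Plk3, polo-like kinases of the stress response, ran from 0.113 to 8.53 and from 3.45 to 12.7 CPM. Plk2 was higher with lymphoma in CD8 libraries (1.53 ± 0.50, adjusted p = 0.0521). Psrc1, which encodes a spindle protein, was at most 8.96 CPM, in CD4 KO lymphoma 3, and was higher in KO libraries in 4 of 4 comparisons without passing (0.90 ± 0.43, adjusted p = 0.208 in CD8 and 1.03 ± 0.41, adjusted p = 0.146 in CD4 libraries).

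Of the 14 cell death genes 12 were tested. Fas, the death receptor through which activated lymphocytes are removed (GRCm38, chromosome 19, 34290666 to 34327772), was the 1 that fell in KO libraries. Fas in CD8 libraries stood at 11.9, 15.9 and 12.8 CPM in KO lymphoma and 16.2, 18.6 and 16.8 CPM in KO control libraries, and 25.4, 30.3 and 27.6 CPM in WT lymphoma and 24.9, 21.0 and 19.6 CPM in WT control libraries. All 6 CD8 KO libraries, at 11.9 to 18.6 CPM, lay below all 6 CD8 WT libraries, at 19.6 to 30.3 CPM. Fas averaged 15.4 ± 2.54 CPM in KO and 24.8 ± 4.01 CPM in WT libraries (SD, n = 6 each) and fell by 0.66 ± 0.11, adjusted p = 0.00744, also without any 1 library. Among CD8 lymphoma libraries Fas fell (-1.02 ± 0.15, adjusted p = 0.0254), where the call ended without any 1 library other than KO lymphoma 2 (adjusted p up to 0.136), and the difference was -0.31 ± 0.15, adjusted p = 0.382 among controls. Fas in CD4 libraries stood at 29.6, 22.2 and 13.9 CPM in KO lymphoma and 20.8, 21.9 and 19.4 CPM in KO control libraries, and 32.9, 25.3 and 23.3 CPM in WT lymphoma and 28.1, 20.2 and 23.2 CPM in WT control libraries. CD4 groups overlapped, with -0.31 ± 0.18, adjusted p = 0.305 over both conditions.

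In CD8 cells Fas also separated lymphoma from control in opposite directions by genotype. All 3 CD8 KO lymphoma libraries lay below all 3 KO controls (-0.35 ± 0.16, adjusted p = 0.171), and all 3 WT lymphoma libraries above all 3 WT controls (0.36 ± 0.15, adjusted p = 0.237). The test of that difference, the genotype by lymphoma interaction, gave -0.72 ± 0.22 with an unadjusted p of 0.00642 and an adjusted p of 1 in edgeR, so it did not pass. The T cell sum was 811.4 to 1481 CPM in CD8 KO lymphoma, 1836 to 1987 CPM in KO control, 1349 to 1701 CPM in WT lymphoma and 1908 to 2171 CPM in WT control libraries. Over both conditions 1 of 8 T cell genes passed as lower in CD8 KO libraries, and the part of cell mixture in the Fas result was not tested.

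Bbc3 encodes PUMA, which releases the mitochondrial death pathway and is a main executor of p53-driven lymphocyte death. Bbc3 in CD8 libraries stood at 51.1, 65.4 and 82.7 CPM in KO lymphoma and 144, 107 and 111 CPM in KO control libraries, and 70.5, 80.3 and 65.2 CPM in WT lymphoma and 72.4, 70.4 and 90.8 CPM in WT control libraries. The CD8 KO controls stood apart, at 107 CPM or more, where no other CD8 library was above 90.8 CPM. Within KO mice Bbc3 fell with lymphoma (-0.87 ± 0.18, adjusted p = 0.0434), a call that ended without any 1 KO control or KO lymphoma 1 (adjusted p up to 0.139). Over both genotypes it fell by 0.48 ± 0.13, not without WT control 3, KO control 1 or WT lymphoma 3 (adjusted p up to 0.062), while within WT mice the difference was -0.09 ± 0.18, adjusted p = 0.834. Between genotypes it was 0.67 ± 0.18, adjusted p = 0.131 in CD8 controls, and the interaction was -0.77 ± 0.25 (unadjusted p = 0.00985, adjusted p = 1). Bbc3 in CD4 libraries stood at 41.9, 40.5 and 43.4 CPM in KO lymphoma and 54.4, 44.3 and 46.9 CPM in KO control libraries, and 56.2, 60.5 and 54.6 CPM in WT lymphoma and 44.5, 40.9 and 70.3 CPM in WT control libraries. Among CD4 lymphoma libraries all 3 KO values lay below all 3 WT values (-0.48 ± 0.16, adjusted p = 0.370). T cell marker genes fell with lymphoma in CD8 libraries, 7 of 8 over both genotypes and 3 of 8 within KO mice. Their part in the Bbc3 result was not tested.

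**Figure D4:**
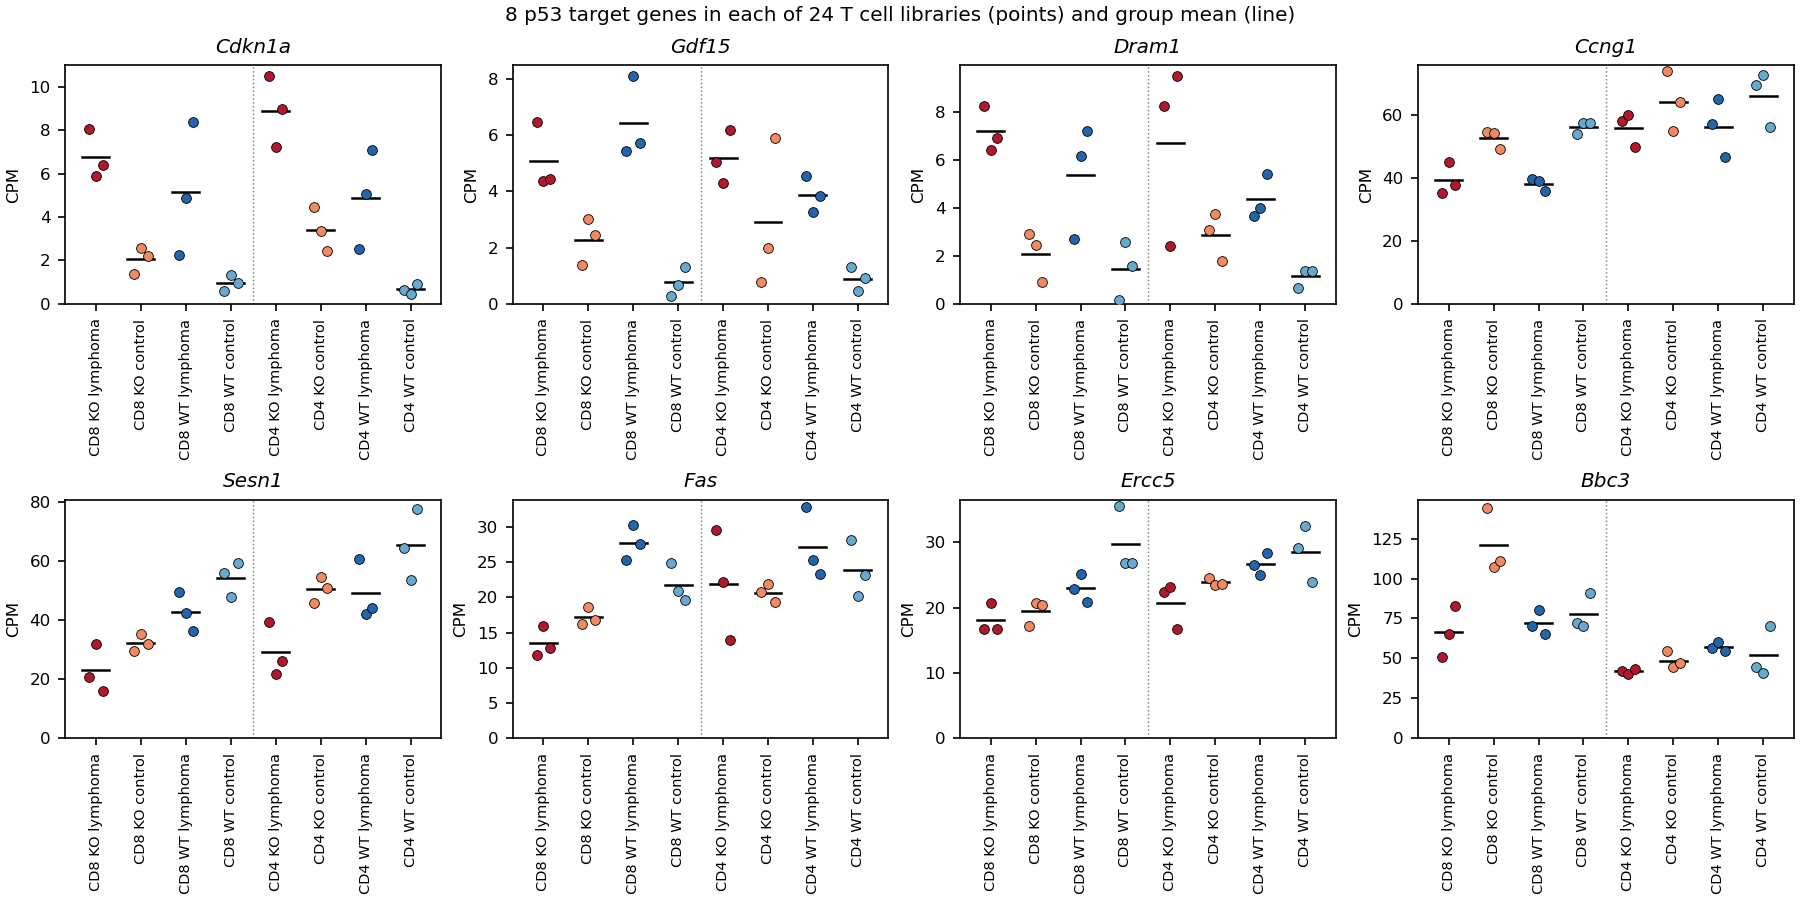
Levels in CPM (vertical axis, from 0) of 8 members in each of the 24 libraries, grouped on the horizontal axis by cell type, genotype and condition, with a line at each group mean. Sesn1, Fas and Ercc5 lie lower in CD8 KO than in CD8 WT libraries, Cdkn1a, Gdf15 and Dram1 have their lowest group means in WT controls, and Bbc3 is highest in the CD8 KO controls.

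Dram1 encodes a lysosomal protein that p53 uses to start autophagy. Dram1 in CD8 libraries stood at 8.24, 6.42 and 6.89 CPM in KO lymphoma and 2.90, 2.44 and 0.928 CPM in KO control libraries, and 2.71, 6.17 and 7.21 CPM in WT lymphoma and 0.145, 2.59 and 1.57 CPM in WT control libraries. Dram1 in CD4 libraries stood at 8.26, 2.40 and 9.47 CPM in KO lymphoma and 3.08, 3.75 and 1.78 CPM in KO control libraries, and 3.66, 3.99 and 5.39 CPM in WT lymphoma and 0.659, 1.39 and 1.39 CPM in WT control libraries. Lymphoma libraries were higher within each genotype of CD8 cells without overlap, and CD4 KO lymphoma 2 was the 1 CD4 lymphoma library within the range of its controls. Dram1 rose by 1.82 ± 0.45, adjusted p = 0.0189 in CD8 (not without WT lymphoma 3, adjusted p = 0.0558) and by 1.51 ± 0.34, adjusted p = 0.0224 in CD4 libraries. The CD4 call ended without WT control 1, KO control 1 or 3, WT lymphoma 3 or KO lymphoma 1 (adjusted p up to 0.0673). Marker genes of several lists rose in the same comparisons. In CD8 libraries they were 5 of 12 macrophage, 6 of 6 platelet, 5 of 5 blood progenitor, 5 of 8 neutrophil, 3 of 7 erythroid and 8 of 10 mitosis genes. In CD4 libraries they were 3 of 12, 6 of 6, 5 of 5, 2 of 8, 2 of 7 and 5 of 10 in the same order. The part of any of these cells in the Dram1 result was not tested.

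Trp53inp1, a nuclear stress protein that helps p53 reach death genes, and Zmat3, an RNA-binding zinc finger protein, fell with lymphoma in CD8 libraries. In the same comparison 7 of 8 T cell marker genes fell, and their part in the 2 results was not tested. Trp53inp1 in CD8 libraries stood at 49.7, 63.5 and 33.5 CPM in KO lymphoma and 86.7, 86.6 and 71.4 CPM in KO control libraries, and 77.7, 78.1 and 58.1 CPM in WT lymphoma and 79.9, 86.5 and 90.2 CPM in WT control libraries. Each genotype's lymphoma libraries were below its controls, by a narrow margin of 78.1 against 79.9 CPM in WT mice. The difference was -0.49 ± 0.15, adjusted p = 0.0382 over both genotypes and -0.74 ± 0.21, adjusted p = 0.0649 within KO mice. Trp53inp1 in CD4 libraries stood at 103, 83.8 and 46.0 CPM in KO lymphoma and 86.2, 96.1 and 85.6 CPM in KO control libraries, and 98.9, 103 and 66.7 CPM in WT lymphoma and 92.6, 88.2 and 81.1 CPM in WT control libraries. These groups overlapped (-0.12 ± 0.18, adjusted p = 0.721). Zmat3 in CD8 libraries stood at 9.91, 13.5 and 15.3 CPM in KO lymphoma and 15.9, 18.1 and 17.1 CPM in KO control libraries, and 13.2, 11.1 and 12.2 CPM in WT lymphoma and 18.2, 15.4 and 14.4 CPM in WT control libraries. Here too both genotypes' lymphoma libraries were below their controls, a fall of 0.39 ± 0.13, adjusted p = 0.0492. Zmat3 in CD4 libraries stood at 12.1, 17.1 and 14.9 CPM in KO lymphoma and 21.0, 20.2 and 20.1 CPM in KO control libraries, and 15.4, 13.9 and 14.9 CPM in WT lymphoma and 19.1, 13.9 and 17.6 CPM in WT control libraries. In CD4 cells the KO groups were apart and the WT groups overlapped (-0.36 ± 0.12, adjusted p = 0.0971). Both CD8 calls were close to the threshold: Trp53inp1 passed in 3 and Zmat3 in 2 of the 12 fits that each left out 1 library, with adjusted p up to 0.0945 and 0.113. The Trp53inp1 call also ended in the fit of all 24 libraries together (0.0573), and that of Zmat3 with no filter on low counts (0.0913) and with the Y-linked score as a covariate (0.101).

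Pmaip1 encodes Noxa, another trigger of mitochondrial death, Aen a nuclease of dying cells and Ei24 a membrane protein of the endoplasmic reticulum. None of them passed for genotype or lymphoma. Pmaip1 in CD8 libraries stood at 20.9, 22.7 and 8.50 CPM in KO lymphoma and 19.7, 11.8 and 7.66 CPM in KO control libraries, and 7.43, 12.5 and 17.6 CPM in WT lymphoma and 5.09, 6.08 and 6.76 CPM in WT control libraries. Pmaip1 in CD4 libraries stood at 14.7, 9.31 and 8.84 CPM in KO lymphoma and 6.96, 9.79 and 8.81 CPM in KO control libraries, and 7.83, 7.04 and 11.5 CPM in WT lymphoma and 2.75, 4.51 and 6.34 CPM in WT control libraries. KO controls were above WT controls without overlap in both cell types, with 1.14 ± 0.44, adjusted p = 0.267 in CD8 and 0.86 ± 0.32, adjusted p = 0.188 in CD4 libraries. Aen in CD8 libraries stood at 66.4, 60.3 and 79.4 CPM in KO lymphoma and 73.5, 61.4 and 62.0 CPM in KO control libraries, and 60.8, 59.7 and 63.5 CPM in WT lymphoma and 61.5, 48.3 and 52.4 CPM in WT control libraries. Aen in CD4 libraries stood at 65.3, 65.1 and 72.6 CPM in KO lymphoma and 51.8, 50.6 and 50.2 CPM in KO control libraries, and 51.0, 53.7 and 53.2 CPM in WT lymphoma and 52.4, 45.9 and 47.5 CPM in WT control libraries. The 3 CD4 KO lymphoma libraries were above all other CD4 libraries in Aen, with 0.39 ± 0.10, adjusted p = 0.160 against KO controls. Close copies share 6.32% of the 31-letter words in the last 300 bases of Aen transcripts, so its counts are less certain. Ei24 in CD8 libraries stood at 88.8, 85.8 and 108 CPM in KO lymphoma and 121, 98.3 and 91.6 CPM in KO control libraries, and 89.6, 88.9 and 95.2 CPM in WT lymphoma and 77.7, 90.8 and 80.9 CPM in WT control libraries. Ei24 in CD4 libraries stood at 96.6, 100.4 and 133 CPM in KO lymphoma and 106, 92.1 and 92.7 CPM in KO control libraries, and 84.4, 75.7 and 91.1 CPM in WT lymphoma and 78.4, 71.2 and 81.1 CPM in WT control libraries. All 6 CD4 KO libraries lay above all 6 CD4 WT libraries, and Ei24 missed the threshold (0.31 ± 0.09, adjusted p = 0.0700).

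The remaining cell death genes passed in no comparison. Phlda3, which restrains the survival kinase Akt, ran from 2.23 to 17.7 CPM and was highest in KO lymphoma 3 of both cell types, at 17.7 CPM in CD8 and 16.2 CPM in CD4 libraries. Bax, a pore-forming executor of cell death, ran from 12.3 to 22.9 CPM, with fold changes between -0.07 and 0.22 in the 8 comparisons of 2 groups. It shares 20.5% of its 3′ words with the gene Gm45808. Apaf1, the scaffold that activates caspase 9, ran from 14.6 to 31.2 CPM, and Tnfrsf10b, a receptor for the death ligand TRAIL with 18.5% shared words, from 1.89 to 6.16 CPM.

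Among the 4 genes of repair and nucleotide supply, Ercc5 fell in KO libraries. It encodes XPG, an endonuclease of nucleotide excision repair (GRCm38, chromosome 1, 44147744 to 44181260). Ercc5 in CD8 libraries stood at 16.8, 20.7 and 16.8 CPM in KO lymphoma and 17.3, 20.7 and 20.4 CPM in KO control libraries, and 22.9, 25.2 and 20.9 CPM in WT lymphoma and 35.6, 26.9 and 26.8 CPM in WT control libraries. All 6 CD8 KO libraries were below all 6 CD8 WT libraries, by a narrow margin of 20.7 against 20.9 CPM. The fall was 0.46 ± 0.11, adjusted p = 0.0366, and it passed only without WT control 2, WT lymphoma 3 or KO lymphoma 2 among the 12 fits that left out 1 library (adjusted p up to 0.100). Ercc5 in CD4 libraries stood at 22.4, 23.1 and 16.7 CPM in KO lymphoma and 24.6, 23.4 and 23.6 CPM in KO control libraries, and 26.5, 24.97 and 28.4 CPM in WT lymphoma and 29.1, 32.6 and 23.9 CPM in WT control libraries. The 3 CD4 KO lymphoma libraries were below the 3 CD4 WT lymphoma libraries, and over both conditions the CD4 difference was -0.36 ± 0.13, adjusted p = 0.121. Xpc, which recognises damage for the same repair route, was lower in KO libraries in 4 of 4 comparisons without passing (-0.14 ± 0.11, adjusted p = 0.462 in CD8 and -0.14 ± 0.10, adjusted p = 0.407 in CD4 libraries). Polk, a translesion polymerase, ran from 9.11 to 17.6 CPM.

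Rrm2b encodes the p53-inducible subunit of ribonucleotide reductase, which supplies deoxynucleotides. Rrm2b in CD8 libraries stood at 503, 257 and 537 CPM in KO lymphoma and 181, 209 and 142 CPM in KO control libraries, and 227.9, 334 and 419.8 CPM in WT lymphoma and 231, 131 and 239 CPM in WT control libraries. Rrm2b in CD4 libraries stood at 391, 164 and 853 CPM in KO lymphoma and 208, 284.2 and 184 CPM in KO control libraries, and 221, 121 and 410.4 CPM in WT lymphoma and 139.5, 141 and 249 CPM in WT control libraries. It rose with lymphoma in CD8 libraries (1.004 ± 0.22, adjusted p = 0.0127), also without any 1 library, and did not pass in CD4 libraries (0.73 ± 0.37, adjusted p = 0.261). In CD8 cells the KO groups were apart and the WT groups overlapped, and in CD4 cells KO lymphoma 3 was above all others and KO lymphoma 2 within the range of the CD4 controls. Of the mitosis markers, 8 of 10 rose in CD8 lymphoma libraries. Their CD8 sums were 292.8 to 930.1 CPM in KO lymphoma and 149.7 to 293.4 CPM in KO control libraries. In WT mice they were 204.3 to 453.9 CPM in lymphoma and 113.0 to 147.5 CPM in control libraries. This was not particular to mitosis markers. In the same CD8 comparison 6 of 6 platelet, 5 of 5 blood progenitor, 5 of 8 neutrophil, 5 of 12 macrophage and 3 of 7 erythroid genes rose. In CD4 libraries 5 of 10 mitosis markers rose, and Rrm2b did not pass. No mitosis marker was at 0 in a group, and the part of dividing or other cells in the Rrm2b result was not tested. Rrm2b counts are uncertain, since 27.1% of the 3′ words of its transcripts are shared with Gm8616.

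Of the 8 stress and metabolism genes 7 were tested, and Sesn1 fell in KO libraries of both cell types. It encodes sestrin 1, which dampens the growth kinase complex mTORC1 (GRCm38, chromosome 10, 41809935 to 41908424). Sesn1 in CD8 libraries stood at 20.8, 31.9 and 16.1 CPM in KO lymphoma and 29.4, 35.2 and 32.0 CPM in KO control libraries, and 49.6, 42.5 and 36.4 CPM in WT lymphoma and 56.0, 47.8 and 59.2 CPM in WT control libraries. All 6 CD8 KO libraries, at 16.1 to 35.2 CPM, lay below all 6 CD8 WT libraries, at 36.4 to 59.2 CPM. Sesn1 averaged 27.6 ± 7.43 CPM in CD8 KO and 48.6 ± 8.42 CPM in CD8 WT libraries (SD, n = 6 each), a fall of 0.80 ± 0.15, adjusted p = 0.0147 that held without any 1 library. It was -0.72 ± 0.22, adjusted p = 0.176 among CD8 controls and -0.89 ± 0.22, adjusted p = 0.105 among CD8 lymphoma libraries. Sesn1 in CD4 libraries stood at 39.4, 21.6 and 26.3 CPM in KO lymphoma and 45.7, 54.6 and 50.9 CPM in KO control libraries, and 60.8, 42.1 and 44.1 CPM in WT lymphoma and 64.5, 53.5 and 77.7 CPM in WT control libraries. Here KO and WT lymphoma libraries did not overlap and controls did. Over both conditions Sesn1 fell by 0.62 ± 0.15, adjusted p = 0.0319 in CD4 KO libraries, but in only 4 of the 12 fits without 1 library, those without WT control 2, WT lymphoma 3 or KO lymphoma 1 or 2 (adjusted p up to 0.0888).

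Sesn1 also fell with lymphoma, by 0.64 ± 0.15, adjusted p = 0.0241 in CD4 libraries, where the call ended without WT control 3, KO control 2 or 3 or WT lymphoma 2 or 3 (adjusted p up to 0.0695). In CD8 libraries the difference was -0.40 ± 0.15, adjusted p = 0.0843. Of the 8 T cell marker genes, 7 fell with lymphoma in CD8 and 1 in CD4 libraries. Their sum was 1005 to 1893 CPM in CD4 KO lymphoma, 1772 to 2008 CPM in CD4 KO control, 1420 to 1822 CPM in CD4 WT lymphoma and 1953 to 2268 CPM in CD4 WT control libraries. Among CD8 controls the T cell sums were 1836 to 1987 CPM in KO and 1908 to 2171 CPM in WT libraries. Sesn1 was at 29.4, 35.2 and 32.0 CPM in KO and 56.0, 47.8 and 59.2 CPM in WT controls, a difference that did not pass. Macrophage sums there were 1467 to 1588 CPM in KO and 260.5 to 1315 CPM in WT controls. Platelet sums were 122.1 to 244.3 CPM in KO and 46.1 to 90.7 CPM in WT controls. The part of any of these cells in the Sesn1 result was not tested. Sesn2, its paralog, was higher in KO libraries in 4 of 4 comparisons without passing (0.38 ± 0.20, adjusted p = 0.250 in CD8 and 0.54 ± 0.21, adjusted p = 0.133 in CD4 libraries).

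Gdf15 encodes a secreted cytokine of cell stress. Gdf15 in CD8 libraries stood at 6.47, 4.35 and 4.43 CPM in KO lymphoma and 1.38, 3.02 and 2.44 CPM in KO control libraries, and 5.43, 8.09 and 5.72 CPM in WT lymphoma and 0.291, 0.676 and 1.33 CPM in WT control libraries. Gdf15 in CD4 libraries stood at 5.05, 4.31 and 6.19 CPM in KO lymphoma and 0.796, 1.98 and 5.91 CPM in KO control libraries, and 4.55, 3.28 and 3.83 CPM in WT lymphoma and 1.32, 0.462 and 0.927 CPM in WT control libraries. The 6 CD8 lymphoma libraries were above all 6 CD8 controls, and the lowest value, in CD8 WT control 1, rests on 2 counts. Gdf15 averaged 5.75 ± 1.40 CPM in CD8 lymphoma and 1.52 ± 1.04 CPM in CD8 control libraries (SD, n = 6 each) and rose by 2.09 ± 0.31, adjusted p = 0.00284, also without any 1 library. Within WT mice it rose by 3.04 ± 0.47, adjusted p = 0.00978 (not without WT lymphoma 2, adjusted p = 0.0536), and within KO mice the difference was 1.14 ± 0.42, adjusted p = 0.115. The interaction was -1.90 ± 0.62 with an unadjusted p of 0.00970 and an adjusted p of 1. In CD4 libraries lymphoma gave 1.42 ± 0.41, adjusted p = 0.0569, and CD4 KO control 3, at 5.91 CPM, lay among the lymphoma values. Markers of other blood cells rose in the same CD8 comparison as Gdf15 and as Abhd4 and Rps27l, which follow: 5 of 8 neutrophil, 5 of 5 blood progenitor, 6 of 6 platelet and 5 of 12 macrophage genes. The neutrophil sum was 241.1 to 3432 CPM in CD8 KO lymphoma, 49.7 to 54.9 CPM in KO control, 129.7 to 178.8 CPM in WT lymphoma and 11.8 to 128.9 CPM in WT control libraries. The progenitor sum was 69.4 to 278.6 CPM in KO lymphoma, 28.4 to 52.6 CPM in KO control, 46.0 to 147.7 CPM in WT lymphoma and 9.17 to 21.3 CPM in WT control libraries. The part of these cells in the 3 results was not tested.

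Abhd4, a lipase of N-acyl phospholipids, and Rps27l, a paralog of a ribosomal protein gene, rose with lymphoma in CD8 libraries. Abhd4 in CD8 libraries stood at 6.57, 4.03 and 7.63 CPM in KO lymphoma and 2.60, 1.39 and 2.79 CPM in KO control libraries, and 2.48, 3.98 and 3.32 CPM in WT lymphoma and 1.02, 2.59 and 1.45 CPM in WT control libraries. Lymphoma libraries were above controls without overlap in KO mice and with overlap in WT mice, a rise of 1.17 ± 0.30, adjusted p = 0.0221 over both. Abhd4 in CD4 libraries stood at 5.05, 2.70 and 10.7 CPM in KO lymphoma and 4.48, 5.002 and 4.35 CPM in KO control libraries, and 3.03, 4.92 and 4.40 CPM in WT lymphoma and 2.42, 1.39 and 1.39 CPM in WT control libraries. The 3 CD4 WT controls were below all other CD4 libraries, and the CD4 difference of KO against WT was 0.92 ± 0.30, adjusted p = 0.0903. Rps27l in CD8 libraries stood at 60.4, 50.7 and 80.0 CPM in KO lymphoma and 43.0, 53.4 and 41.0 CPM in KO control libraries, and 45.2, 48.3 and 57.1 CPM in WT lymphoma and 36.5, 37.7 and 42.0 CPM in WT control libraries. Here the WT groups were apart and the KO groups overlapped, with a rise of 0.43 ± 0.11, adjusted p = 0.0245 over both genotypes. Rps27l in CD4 libraries stood at 61.0, 38.5 and 124 CPM in KO lymphoma and 44.1, 45.0 and 42.1 CPM in KO control libraries, and 47.1, 49.6 and 59.2 CPM in WT lymphoma and 43.0, 31.2 and 34.2 CPM in WT control libraries. CD4 KO lymphoma 3 was again above all others, and the CD4 difference was 0.59 ± 0.21, adjusted p = 0.107. The Abhd4 call ended without WT control 3 or WT lymphoma 2 or 3 (adjusted p up to 0.0585), and that of Rps27l without WT control 1, KO control 1 or 3 or WT lymphoma 2 or 3 (up to 0.0716) and in the fit of all 24 libraries together (0.0956). Rps27l shares 20.4% of its 3′ words with other genes, among them Gm46542.

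Ddit4 encodes REDD1, a second brake on mTORC1, with a median of 369 CPM over the 24 libraries. Ddit4 in CD8 libraries stood at 176, 176 and 334 CPM in KO lymphoma and 409.7, 363 and 281 CPM in KO control libraries, and 412, 386 and 374 CPM in WT lymphoma and 243.4, 259 and 451 CPM in WT control libraries. Ddit4 in CD4 libraries stood at 316, 271.3 and 335 CPM in KO lymphoma and 501, 591 and 426 CPM in KO control libraries, and 590.3, 522 and 567 CPM in WT lymphoma and 246, 309.6 and 637 CPM in WT control libraries. All 3 KO lymphoma libraries were below all 3 WT lymphoma libraries in both cell types (-0.76 ± 0.28, adjusted p = 0.194 in CD8 and -0.90 ± 0.26, adjusted p = 0.340 in CD4), while WT controls ranged widely and overlapped KO controls. Its CD4 interaction, -1.20 ± 0.37 (unadjusted p = 0.00664, adjusted p = 1), had the smallest unadjusted p of the members in CD4 cells. Dcxr, a carbonyl reductase, ran from 0.769 to 5.43 CPM and passed nowhere.

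Whether the response to lymphoma differed between genotypes was thus not shown for any member. The interaction called 0 of 31 members in CD8 and 0 in CD4 libraries by edgeR, where 0% of genes passed in each, and DESeq2 called 0 members in both. At an unadjusted p under 0.05 there were 0 higher and 4 lower members in CD8 and 1 higher and 2 lower in CD4 libraries. Beside the CD8 members stood 155 higher and 287 lower of all 12650 genes tested. Beside the CD4 members stood 145 higher and a larger number lower of all 12808 genes. Lower genes thus outnumbered higher ones among all genes as well.

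The members that hold a p53 element in their promoter did not share a direction. With lymphoma in CD8 libraries Cdkn1a and Rps27l rose, Ccng1 and Bbc3 fell, and Trp53, Aen and Sesn1 did not pass. In CD8 KO libraries Sesn1 fell and the other 6 did not pass.

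CD8 and CD4 libraries of the same mice were compared over all 4 groups. Of the cell death genes, 3 were higher in CD8 cells. Bbc3 averaged 84.2 ± 25.6 CPM in CD8 and 49.9 ± 9.33 CPM in CD4 libraries (SD, n = 12 each) and rose by 0.80 ± 0.09, adjusted p = 5.77e-07. Aen (0.27 ± 0.05, adjusted p = 0.000975) and Pmaip1 (0.63 ± 0.20, adjusted p = 0.0355) were higher too, and Ccng1 was lower (-0.32 ± 0.08, adjusted p = 0.00495). These 4 of 31 members stood beside a background of 13.7% of genes (6.58% higher and 7.1% lower). The calls of Bbc3, Aen and Ccng1 held without any 1 pool, and that of Pmaip1 in 5 of 12 such fits, with adjusted p up to 0.125. Cdkn1a (-0.04 ± 0.23) and Gdf15 (0.12 ± 0.27) did not pass. With the pool of mice as a block, which uses the pairing of CD8 and CD4 libraries from the same mice, 8 members passed. They were the same 4 and Plk3, Trp53inp1, Sesn1 and Ddit4. The background of 13.7% belongs to the fit without this block, so the 8 cannot be set against it.

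Beyond the members, 47 further genes of the p53 pathway were counted, of which 39 were tested in CD8, 40 in CD4 and 40 in all libraries. Between KO and WT over both conditions, 1 rose and 2 fell in CD8 libraries, Dyrk3, a protein kinase (2.31 ± 0.62), against Atm and Ephx1, an epoxide hydrolase (-0.86 ± 0.16). In CD4 libraries Thbs1, which encodes a matrix protein abundant in platelets, rose (1.08 ± 0.25) and Atm fell. These 3 of 39 and 2 of 40 stood beside backgrounds of 6.45% and 6.31% of all genes. With lymphoma 7 of 39 rose and 2 fell in CD8 libraries, beside 11.6% higher and 6.12% lower among all genes. The risers were the checkpoint kinase Chek1 (1.44 ± 0.33), the p53 kinase Hipk2 (0.40 ± 0.08), Gtse1 (1.34 ± 0.29), Thbs1 (1.33 ± 0.26), Steap3 (1.67 ± 0.50), Siva1 (0.65 ± 0.17) and Dyrk3 (2.45 ± 0.62). The damage sensor Ddb2 (-0.58 ± 0.16) and the kinase Atr (-0.65 ± 0.20) fell. In CD4 libraries Chek1 (1.29 ± 0.35) and Thbs1 (2.27 ± 0.25) rose, and Ephx1 (-0.54 ± 0.12) and Ptp4a3, a phosphatase (-0.75 ± 0.14), fell, 4 of 40 beside 7.18% of all genes. Platelet markers, at 274.3 to 396.4 CPM in CD8 KO lymphoma, 122.1 to 244.3 CPM in KO control, 235.7 to 297.2 CPM in WT lymphoma and 46.1 to 90.7 CPM in WT control libraries, moved with Thbs1, with 6 of 6 called higher with lymphoma in each cell type. Their part was not tested.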

How the data were processed

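Spleen T cells were isolated by EasySep, and 3′ tag libraries were made with the Lexogen QuantSeq FWD kit, per the labels' protocols. The step that parted CD4 from CD8 cells is not stated in the labels. The deposited table holds the authors' estimated counts per gene, rounded to whole numbers here. The submitters' processing notes name Salmon 0.11.3 and the build GRCh38, without saying what each was used for. Of 34113 genes, 2 were left out because 1 library each held a letter in place of a number, and 11473 genes had no count.

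The counts were tested with edgeR 4.0.16 in R 4.3.3 (quasi-likelihood, robust, TMM scaling, filterByExpr with 10 counts and 15 in total), with limma 3.58.1, apart for CD4 and CD8 libraries (12 each) and together for CD8 against CD4. Benjamini-Hochberg adjustment ran over all genes tested, and calls needed an adjusted p under 0.05. CPM uses raw library totals, with no correction for gene length. Members, lists and tests were chosen with earlier results of these data known. Values in every library are given for members called in a comparison, for Trp53 and Mdm2 and for the 3 members with the smallest p in each comparison. The labels pair each CD8 with a CD4 library of 1 mouse pool, and deviations from group means correlated at -0.0181 to 0.525 over the 12 pairs. Alternatives were DESeq2 1.42.0, its size factors, other filters, a replicate block, a Y-linked score as covariate, all 24 libraries in 1 fit, and each library left out. The fitting code was tested on simulated data. Gene positions came from GENCODE (GRCm38) and promoter sequences from RefSeq (GRCm38.p6).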

Additional observations from a re-analysis of the deposited data

How the results depend on the processing

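Of the counts of members called, DESeq2's size factors and no filter on low counts moved none beyond 1.5 times. DESeq2 called 3 members in CD4 WT and 3 in CD4 KO mice with lymphoma against control and 5 over both genotypes, 7 in CD8 KO mice with lymphoma against control, and, for KO against WT, 1 in CD8 controls and 2 in CD8 lymphoma libraries. The Y-linked score as covariate gave 6 members for CD4 lymphoma and 6 for CD4 genotype, 2 for CD8 KO lymphoma and 5 for CD8 genotype. A single fit of all 24 libraries gave 5 for CD4 lymphoma and 2 for CD8 KO lymphoma, and the stricter filter of 30 counts in 3 libraries gave 2 for CD8 KO lymphoma. The replicate number as a block gave 0 for CD8 KO lymphoma, ended the calls of Ccng1 in CD8 WT lymphoma, Zmat3 in CD8 lymphoma and Ercc5 in CD8 KO libraries, and added Gdf15 in CD4 lymphoma. Same-numbered libraries correlated at -0.21 to 0.336 in CD4 and -0.231 to 0.14 in CD8 cells, and every pair was above 0.1 only between CD4 KO and WT lymphoma (0.233, 0.185 and 0.336), where the block gave 0 calls. The pool of mice as a block gave 8 for CD8 against CD4. The cause of these shifts was not tested.

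Leaving out each library in turn gave these ranges of members called. With lymphoma they were 0 to 2 in CD8 WT, 0 to 9 in CD8 KO, 4 to 12 in CD8 over both genotypes, 0 to 1 in CD4 WT, 0 to 2 in CD4 KO and 1 to 8 in CD4 over both. For KO against WT they were 0 to 0 in CD8 controls, 0 to 3 in CD8 lymphoma, 2 to 6 in CD8 over both conditions, 0 to 1 in CD4 controls, 0 to 0 in CD4 lymphoma and 1 to 6 in CD4 over both. Both interactions stayed at 0, and CD8 against CD4 gave 3 to 5. The counts of 9, 8, 3, 6 and 6 and the 2 in CD4 KO mice were reached without KO lymphoma 2, and the lowest counts of 4 and 1 with lymphoma without WT lymphoma 3. No direction reversed for a called member. The shares of all genes called in these fits are not given here, so the ranges have no background beside them.

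Counts over all genes moved most under DESeq2: 753 genes against 180 in edgeR for CD8 WT lymphoma, 1461 against 2.18% of the 12650 genes tested for CD8 KO lymphoma, 667 against 216 for CD4 WT lymphoma, 336 against 0 for CD4 KO lymphoma and 1532 against 920 for CD4 lymphoma. For KO against WT the counts were 363 against 66 in CD8 controls, 492 against 31 in CD8 lymphoma, 1566 against 816 in CD8 over both, 768 against 257 in CD4 controls, 81 against 0 in CD4 lymphoma and 1488 against 808 in CD4 over both. The interactions gave 1 against 0 each. The Y-linked score gave 117 for CD8 WT lymphoma, 14 for CD8 controls, 475 for CD4 WT lymphoma, 3 for CD4 KO lymphoma, 1743 for CD4 lymphoma, 484 for CD4 controls and 1847 for CD4 genotype. Without a filter, 62 genes passed for CD8 lymphoma genotype, 27 for CD4 KO lymphoma and 3 for CD4 lymphoma genotype, and with the stricter filter 416 passed for CD8 KO lymphoma and 63 for CD8 lymphoma genotype. The replicate block gave 25 and 17 for the same pair, and the fit of all 24 libraries gave 376 for CD8 WT, 629 for CD8 KO and 20 for CD4 KO lymphoma. Members under about 3 CPM rest on few counts per library, which limits what their tests can show.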
